A study of Mus musculus with 13 samples.

Results

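Freshly sorted smooth-muscle and mesenchymal-like cells (SMMC) of mouse skeletal muscle were compared with freshly sorted muscle stem cells (MuSC) across gene families and pathways. The comparison used 5 bulk RNA-seq libraries of the 13 samples in the series, 3 of fresh SMMC (n = 3) and 2 of fresh MuSC (n = 2). All came from wild-type C57BL/6 mice aged 2 months. Both populations were sorted as negative for CD31, CD45 and Sca1 and positive for ITGA7. They differed in VCAM1, which was absent from the surface of SMMC and present on MuSC. PolyA RNA was copied with Smart-seq2, a full-length cDNA method for few cells. The labels number the libraries within a group without saying that they came from separate animals. The p-values therefore measure the spread between libraries of a group, which may be technical. This spread was pooled over all bulk libraries of the series, with those of proliferating and differentiating SMMC as well as the fresh ones. Of 24411 genes in the table, 12092 reached at least 1 FPKM (fragments scaled by transcript length and by library size) in at least 2 of the 5 libraries and were tested. The values of a gene are given for SMMC replicates 1, 2 and 3 in that order against MuSC replicates 1 and 2. Differences are of log2(FPKM + 1), SMMC minus MuSC, so that a positive value is higher in fresh SMMC.

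Muscle stem cells lie between the muscle fibre and its basement membrane, rest in adult muscle and express the transcription factor Pax7. Mural cells, the pericytes and smooth muscle cells of vessel walls, contract through smooth muscle actin and myosin under the control of hormones and cyclic nucleotides. Tenocytes make the collagen-rich matrix of tendon, and Schwann cells ensheath nerve fibres. In bulk libraries of a sorted population, fewer cells of a type and less RNA per cell cannot be told apart.

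Of the 12092 genes, 7894 (65.3%) passed limma's test at an adjusted p of 0.05, and 5503 (45.5%) were higher and 2391 (19.8%) lower in fresh SMMC. At least 4-fold differences were seen for 1772 higher (14.7%) and 666 lower genes (5.51%). Detection was uneven: 8696 genes were at 1 FPKM or more in at least 2 SMMC libraries and in both MuSC libraries, 2773 passed the filter only through SMMC and 542 only through MuSC. A gene that passed through 1 population alone had to differ, so families are also counted over their members detected in both, among which 3207 genes (36.9%) were higher and 1927 (22.2%) lower. The median difference over all genes tested was 0.545 on the log2 scale with FPKM as deposited, 0.241 after rescaling by trimmed mean of M-values and -0.028 after quantile normalization. The share of called genes that were higher was accordingly 69.7%, 58.5% (4660 higher, 3309 lower) and 48.1% (3681 higher, 3968 lower). Centring every library within bins of transcript length or of GC content left 3199 higher and 4200 lower, and 3202 and 4027. Family medians are therefore given relative to the all-gene median, and counts are given for families in which the balance of higher and lower members turned under rescaling or centring. The difference also moved with transcript features in the mouse annotation: with genes divided into 5 equal bins, its median was 0.75 for the shortest and 0.10 for the longest transcripts, and 0.21 for the lowest and 1.00 for the highest GC content. Calls lost after centring within bins of either feature are given beside the gene. Rn45s, the ribosomal RNA precursor, took 6.89% to 10.2% of all FPKM in fresh SMMC and 0.024% to 0.025% in MuSC. Proliferating and differentiating SMMC libraries held 4.11% to 9.61%. Whether the populations differed in library preparation was not tested, and such a difference could not be told apart from one between the cells. Gene ranks correlated with Spearman's rho of 0.941 to 0.965 within SMMC, 0.978 within MuSC and 0.610 to 0.651 between them, across genes, which are not independent replicates.

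Markers of vessel wall and tendon were high in fresh SMMC. Summed tenocyte markers stood at 18546, 13416 and 9083 against 22.7 and 13 FPKM, with 9 of 9 called higher. Summed pericyte markers stood at 1549, 2995 and 4008 against 104 and 109 FPKM (10 of 11 higher) and smooth muscle markers at 1367, 1557 and 2014 against 235 and 175 FPKM (8 of 9 higher, Des lower). For these 3 lists every SMMC library lay above both MuSC libraries. Muscle stem cell markers summed to 930.4, 1051 and 812 against 28426 and 41175 FPKM, and 9 of 10 were lower. The exception was Chodl, a membrane lectin, which was higher in SMMC (324, 409 and 261 against 140.1 and 127 FPKM; log2 difference 1.28 ± 0.22 SE, adjusted p = 0.00028), but not called after centring within bins of transcript length (adjusted p = 0.323). Pax7 itself stood at 0.367, 1.32 and 1.83 against 19.3 and 20.3 FPKM. Schwann cell markers gave 8 higher and 2 lower of 12, and their sums overlapped (1099, 778 and 745 against 611 and 799 FPKM). Ncam1, a lower gene whose values are given below, made up most of the MuSC sums. Fibro-adipogenic progenitor markers (4638, 3717 and 2689 against 843 and 713 FPKM) and perineurial markers (192, 409.8 and 423 against 18.5 and 14.4 FPKM) also summed to more in every SMMC library. Of the former 7 were called higher and 1 lower of 9, and of the latter 6 of 6 were called higher. Endothelial, erythroid, blood cell, myofibre and adipocyte markers also summed to more in each SMMC library than in MuSC. Endothelial markers summed to 124, 186 and 224 against 39.5 and 26 FPKM (8 higher and 1 lower of 9 tested) and erythroid genes to 885, 332 and 399.9 against 13.2 and 6.84 FPKM (4 higher and 0 lower of 4 tested). Blood cell markers summed to 525, 178 and 115 against 39.97 and 27.9 FPKM (2 higher and 2 lower of 6 tested) and myofibre genes to 143, 82.1 and 80.3 against 39.8 and 34.9 FPKM (3 higher and 0 lower of 6 tested). Adipocyte genes summed to 104, 118 and 148 against 2.41 and 4.0 FPKM (2 higher and 0 lower of 2 tested). Among defining genes of these types, Hbb-bt, Adipoq, Plin1, Lep and the blood cell markers Adgre1 and S100a9 were listed at 0 in both MuSC libraries. The blood cell marker Cd3e was listed at 0 in all SMMC libraries. Neuronal and epithelial markers stayed near 0 in both populations.

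**Figure D1:**
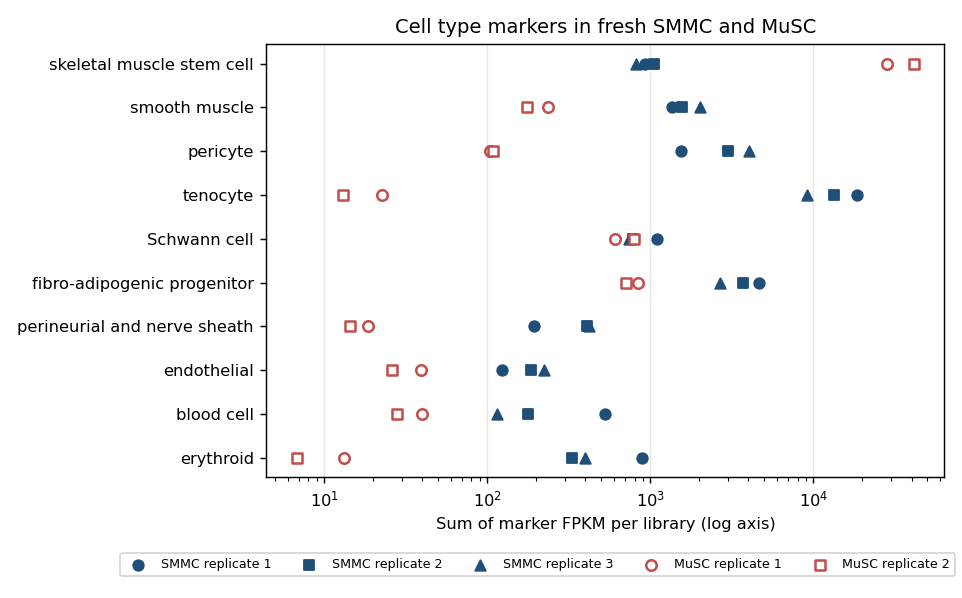
Summed FPKM of the marker genes of 10 cell types (log axis) in each of the 5 libraries, SMMC replicates as filled points and MuSC replicates as open points. Tenocyte sums fell between 9083 and 18546 FPKM in SMMC and between 13 and 22.7 in MuSC, and only the muscle stem cell markers were higher in both MuSC libraries than in all SMMC libraries.

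The 3 SMMC libraries were not alike in these markers. All 11 pericyte markers were lowest in replicate 1 and highest in replicate 3, as in Kcnj8, a potassium channel subunit of mural cells (107, 298 and 450.4 FPKM). In contrast, 8 of 9 tenocyte markers were highest in replicate 1 and lowest in replicate 3, as in Fmod (4029, 3008 and 1999 FPKM). Over all genes tested, 31.9% were lowest in replicate 1 and highest in replicate 3, and 17% the reverse. The small leucine-rich proteoglycans (10 of 13) and collagen chains (20 of 34) were mostly highest in replicate 1 and lowest in replicate 3. Vascular tone genes (21 of 29) were mostly lowest in replicate 1 and highest in replicate 3. Of the cytosolic ribosomal protein genes, 63 of 78 were highest in replicate 1 and lowest in replicate 3. Family differences below therefore rest on libraries whose makeup of vessel wall and tendon genes varied, and the part of that variation was not tested. The SMMC and MuSC libraries did not overlap for any gene named below as higher or lower; over all genes tested, 52.3% lay without overlap higher and 24.1% lower in SMMC. In the families below given with a lower count of 0 by limma, the count at an unadjusted p of 0.05 was 0 as well. The exception was 1 lower cell cycle gene among those detected in both populations.

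Matrix genes were among the families furthest above the all-gene median. Among small leucine-rich proteoglycans, which bind collagen and set fibril width, 13 of 13 tested genes were higher and 0 lower (8 higher and 0 lower of the 8 detected in both populations), with a median 4.95 above that of all genes. Kera (keratocan) stood at 898, 520.0 and 311 against 2.35 and 0.780 FPKM (log2 difference 7.75 ± 0.40 SE, adjusted p = 1.64e-08). Aspn (asporin) was at 424, 509.7 and 542 against 1.75 and 2.77 FPKM and Ogn (osteoglycin) at 377, 363 and 242 against 5.79 and 6.54 FPKM. Each of them was more than an order of magnitude higher in all SMMC libraries than in MuSC. Prelp, which links basement membrane to collagen, and Bgn (biglycan) were carried by MuSC too (718, 632 and 442 against 106 and 62.2 FPKM and 464, 257 and 169 against 44.2 and 25.4 FPKM). Elastic fibre and lysyl oxidase genes were higher in 19 of 21 cases (10 higher and 0 lower of the 12 detected in both populations; relative median 3.0). Mfap4, a microfibril glycoprotein, stood at 728, 451 and 281 against 1.68 and 1.52 FPKM (log2 difference 7.45 ± 0.51 SE, adjusted p = 1.74e-07). Lox, which crosslinks collagen and elastin, stood at 277, 253 and 211 against 5.93 and 5.59 FPKM (log2 difference 5.19 ± 0.47 SE, adjusted p = 1.49e-06). Eln, which encodes elastin itself, was low in absolute level (10.5, 14 and 12.6 against 1.02 and 0.972 FPKM). The large microfibril gene Fbn1 differed by 2.86-fold on the scale of FPKM + 1 and was not called without MuSC replicate 2 (adjusted p = 0.0663) or after centring within bins of GC content (adjusted p = 0.148).

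Thrombospondin, tenascin and other matricellular genes were higher in 23 of 27 cases and lower in 0 (12 higher and 0 lower of the 16 detected in both populations). Comp, a cartilage and tendon matrix protein, Postn, periostin and Sparcl1, a secreted counterpart of SPARC, were among them. Comp stood at 471, 296 and 210.1 against 0.408 and 0.413 FPKM (log2 difference 7.78 ± 0.30 SE, adjusted p = 3.68e-09). Postn was at 698, 276 and 206 against 2.16 and 1.97 FPKM (log2 difference 6.80 ± 0.64 SE, adjusted p = 2.08e-06). Sparcl1 stood at 854, 645 and 689.7 against 12.3 and 7.49 FPKM (log2 difference 6.09 ± 0.34 SE, adjusted p = 2.91e-08). Tnc was not called, and MuSC replicate 1 lay within the range of the SMMC libraries (139, 121 and 93.4 against 129 and 41.3 FPKM). Of the collagen chains, 26 of 34 were higher and 2 lower (10 higher and 1 lower of the 16 detected in both populations). The fibril chains Col1a1 and Col1a2 and the fibril-associated Col12a1 were higher in SMMC. Col1a1 was at 1833, 1169 and 1054 against 9.93 and 9.84 FPKM. Col1a2 stood at 2634, 1579 and 1245 against 13 and 7.57 FPKM. Col12a1 was at 201, 149 and 108 against 1.73 and 1.94 FPKM. The lower chains were Col19a1 and Col15a1, both of which encode chains found at basement membrane zones. Col19a1 stood at 0.345, 1.22 and 0.706 against 28.9 and 23.1 FPKM (log2 difference -3.96 ± 0.42 SE, adjusted p = 5.4e-06). Col15a1 was at 5.4, 5.29 and 4.37 against 20.5 and 19 FPKM (log2 difference -1.79 ± 0.19 SE, adjusted p = 5.31e-06). Laminins and basement membrane genes gave 12 higher and 2 lower of 21 (8 higher and 2 lower of the 16 detected in both populations): Lama4, the laminin chain of vessel walls, was higher and Lamc3 lower. Lama4 stood at 181, 246 and 252 against 1.28 and 4.89 FPKM. Lamc3 was at 6.31, 5.73 and 0.724 against 29 and 29 FPKM. The lower count of this family was 1 without SMMC replicate 3 or MuSC replicate 1.

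The enzymes that finish or cut the matrix divided in the same way, with a few on the MuSC side. Matrix metalloproteinases and their inhibitors were higher in 15 of 16 cases (5 higher and 0 lower of the 6 detected in both populations), with Mmp2 at 1547, 1231 and 779.8 against 71.6 and 72.3 FPKM. Its membrane activator Mmp14 was at 122, 119.8 and 103 against 6.31 and 6.1 FPKM and the inhibitor Timp1 at 83.7, 74 and 39 against 3.77 and 2.24 FPKM. Collagen processing enzymes gave 15 higher and 3 lower of 20 (12 higher and 3 lower of the 17 detected in both populations). The procollagen enhancer Pcolce and the propeptidase Adamts2 were higher, whereas its relative Adamts14 and the prolyl hydroxylase subunit P4ha2 were lower. Pcolce stood at 1369, 992 and 768 against 23.8 and 12.9 FPKM (log2 difference 5.77 ± 0.49 SE, adjusted p = 9.66e-07). Adamts2 was at 205, 136 and 142 against 2.36 and 4.4 FPKM and Adamts14 at 2.0, 2.22 and 1.89 against 10.5 and 9.6 FPKM. P4ha2 stood at 19.4, 18.2 and 13.5 against 42.1 and 35.8 FPKM (log2 difference -1.16 ± 0.24 SE, adjusted p = 0.000961). Serpinh1, the collagen chaperone HSP47, was lower in SMMC (549, 625 and 668 against 1362 and 905 FPKM; log2 difference -0.86 ± 0.33 SE, adjusted p = 0.0341). It was not called after quantile normalization (adjusted p = 0.0765) or without a filter on low values (adjusted p = 0.0892), nor without any 1 of SMMC replicates 1, 2 and 3 and MuSC replicate 1 (adjusted p = 0.0519 to 0.24). Among cathepsins, 8 of 12 were higher and 1 lower (6 higher and 0 lower of the 8 detected in both populations), led by the collagen-degrading Ctsk (187, 129.8 and 75.5 against 0.781 and 0.966 FPKM; log2 difference 6.04 ± 0.89 SE, adjusted p = 7.9e-05).

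Contractile genes of smooth muscle were higher in 17 of 20 cases (9 higher and 1 lower of the 12 detected in both populations; relative median 2.96). Myl9, the regulatory light chain, stood at 95.2, 118 and 169.7 against 0.866 and 0.538 FPKM (log2 difference 6.21 ± 0.27 SE, adjusted p = 6.46e-09). Mylk, the kinase that activates it, was at 86.6, 110.4 and 156 against 2.02 and 2.34 FPKM (log2 difference 5.18 ± 0.33 SE, adjusted p = 8.43e-08). Tpm2, a tropomyosin, stood at 151, 157 and 211 against 4.95 and 3.7 FPKM (log2 difference 5.02 ± 0.23 SE, adjusted p = 7.29e-09). Cnn1, calponin, and Lmod1, leiomodin, stood at 41.6, 33.2 and 37.3 against 0.250 and 0.170 FPKM and 9.18, 17.2 and 21.7 against 0.0636 and 0.140 FPKM, both near 0 in MuSC. Des, the intermediate filament desmin, was the lower member (50.2, 57.4 and 42.2 against 118 and 113 FPKM; log2 difference -1.21 ± 0.21 SE, adjusted p = 0.000299). Cald1, caldesmon, overlapped between the populations and was not called (97.9, 132 and 151 against 99.6 and 82.4 FPKM). Myocd, the cofactor that switches on this program with Srf, was higher, and Srf itself was lower, though not without MuSC replicate 2 (adjusted p = 0.119). Myocd was at 6.47, 3.19 and 7.89 against 0.0201 and 0.00186 FPKM (log2 difference 2.69 ± 0.27 SE, adjusted p = 3.29e-06). Srf stood at 0.869, 1.38 and 1.64 against 2.36 and 3.31 FPKM (log2 difference -0.74 ± 0.23 SE, adjusted p = 0.014). Actins, tropomyosins and troponins gave 13 higher and 2 lower of 17 (7 higher and 2 lower of the 11 detected in both populations), with 1 lower without MuSC replicate 2. Among genes used by most cells, Actb and Myh9 were lower. Actb, cytoplasmic actin, stood at 613, 769 and 810.5 against 11271 and 13870 FPKM and Myh9, the non-muscle myosin, at 41.4, 63 and 79.5 against 249 and 252 FPKM. Acta2, smooth muscle actin, stood at 567, 678 and 907 against 53.2 and 24.4 FPKM and Actg2 at 20.9, 21.8 and 20.7 against 0.0493 and 0.0282 FPKM. Reads of near-identical actins may be shared between family members, and no source used here says how such reads were treated.

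The receptors and second messengers that set vascular tone were higher in 24 of 29 cases and lower in 1, but 17 of them passed the filter only through SMMC. Among the 11 detected in both populations, 8 were higher and 1 lower. Receptors for constrictors were high: Agtr1a, which binds angiotensin II, Ednra and Ednrb, which bind endothelins (37.8, 48.2 and 73.5 against 0 and 0.0671 FPKM and 67.8, 136 and 153 against 0.843 and 0.434 FPKM), and Avpr1a, which binds vasopressin. Agtr1a was at 22.7, 67.1 and 84.9 against 0.0693 and 0.122 FPKM. Avpr1a stood at 23.5, 24.6 and 31.8 against 0.0236 and 0.0693 FPKM. The nitric oxide receptor subunits Gucy1a3 and Gucy1b3 and the prostacyclin receptor Ptgir, which relax vessels, were high as well. Gucy1a3 was at 30.02, 66.8 and 105 against 0.221 and 0.206 FPKM. Gucy1b3 stood at 11.4, 29.1 and 41.5 against 0.113 and 0.0832 FPKM. Ptgir was at 14.2, 20.8 and 28.8 against 1.22 and 1.11 FPKM. The lower member was Adra1a, an alpha-1 adrenergic receptor (1.91, 2.61 and 1.66 against 4.76 and 5.83 FPKM; log2 difference -1.05 ± 0.18 SE, adjusted p = 0.000329). Most of these genes were lowest in SMMC replicate 1, as the pericyte markers were. Rgs proteins, which shorten G protein signals, included Rgs16 and Rgs4, and 5 of 8 were higher with 0 lower (4 higher and 0 lower of the 7 detected in both populations). Rgs16 stood at 118, 158 and 234 against 1.46 and 1.57 FPKM (log2 difference 6.03 ± 0.43 SE, adjusted p = 2.39e-07). Rgs4 was at 164, 298 and 420.1 against 27 and 26.3 FPKM (log2 difference 3.31 ± 0.40 SE, adjusted p = 1.55e-05).

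Ion channels passed mostly through SMMC alone. Of 92 potassium channel genes listed, 30 were tested and 22 passed only through SMMC, with 19 higher and 5 lower, whereas among the 4 detected in both populations 0 were higher and 2 lower. Among those higher were Kcnj8 and its partner Abcc9, which form the ATP-sensitive channel of mural cells, Kcne4 and the voltage-gated Kcna1. Abcc9 stood at 104, 249 and 321 against 1.75 and 1.77 FPKM (log2 difference 6.21 ± 0.50 SE, adjusted p = 5.84e-07). Kcne4 was at 82.5, 119 and 124 against 1.34 and 0.562 FPKM. Kcna1 stood at 60.6, 45 and 55 against 0.754 and 1.21 FPKM. Kcnn3, a calcium-gated channel, was lower (8.05, 10.3 and 8.8 against 16 and 19.5 FPKM), but lost its call when SMMC replicate 1 or 3 or either MuSC replicate was left out (adjusted p = 0.0502 to 0.139) or with a pseudocount of 0.1 FPKM (adjusted p = 0.163). The lower count of potassium channels was 3 without either MuSC library. The subunits of the volume-regulated anion channel diverged. Lrrc8a, its required subunit, fell from 558 and 794 FPKM in MuSC to 2.78, 4.48 and 4.37 in SMMC, while the partner subunits Lrrc8c and Lrrc8d were higher in SMMC. Lrrc8c was at 13.2, 15.4 and 15 against 0.822 and 0.442 FPKM. Lrrc8d stood at 8.5, 21.7 and 26 against 0.342 and 0.262 FPKM. Ano1, a calcium-gated chloride channel of smooth muscle, was higher and the lipid scramblase Ano6 lower. Ano1 was at 15.1, 26.7 and 42.7 against 0.313 and 0.486 FPKM (log2 difference 4.27 ± 0.35 SE, adjusted p = 7.04e-07). Ano6 stood at 70.6, 87.9 and 89.3 against 222 and 309.7 FPKM (log2 difference -1.66 ± 0.35 SE, adjusted p = 0.00125). Calcium store genes split in the same manner: Casq2, a calcium buffer, was higher, and the release channel Ryr3 lower. Casq2 was at 61, 133 and 159.8 against 0.0183 and 0.132 FPKM (log2 difference 6.68 ± 0.47 SE, adjusted p = 2.09e-07). Ryr3 stood at 5.07, 13 and 5.06 against 64 and 63.4 FPKM (log2 difference -3.01 ± 0.57 SE, adjusted p = 0.000543).

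**Figure D2:**
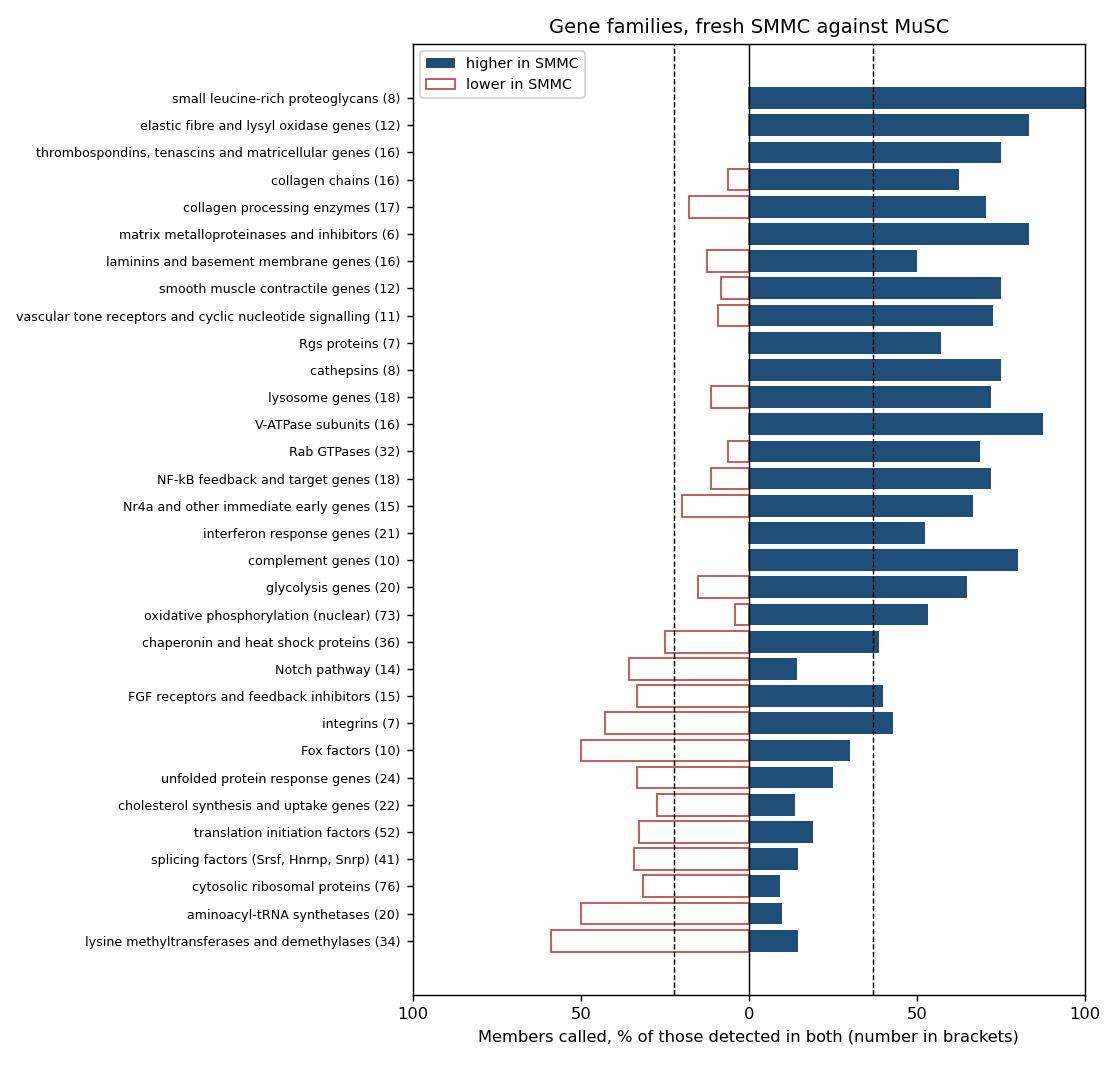
Share of the members detected in both populations that were called higher (right, filled) or lower (left, open) in fresh SMMC, in percent, for 32 families with at least 6 such members; dashed lines mark the shares over all 8696 genes detected in both, 36.9% higher and 22.2% lower. Matrix, contractile and lysosome families lie to the right of the background and tRNA synthetases, lysine methyltransferases and demethylases, and ribosomal proteins to the left.

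Surface adhesion families held members on both sides. Integrins gave 14 higher and 3 lower of 18, yet 11 passed only through SMMC and the 7 detected in both split into 3 higher and 3 lower. Without MuSC replicate 1 the lower count of integrins was 0 in limma's test, with 1 lower at an unadjusted p of 0.05. Itga1, a collagen receptor chain of mural cells, stood at 32.6, 49.2 and 61.6 against 0.484 and 0.545 FPKM (log2 difference 4.96 ± 0.27 SE, adjusted p = 2.38e-08), and Itga6 and Itgb4, which pair as a laminin receptor, were higher too. Itga6 was at 8.49, 19.4 and 26.4 against 0.249 and 0.322 FPKM. Itgb4 stood at 16.3, 45.4 and 46.9 against 0.765 and 0.656 FPKM. Cadherins were divided, with the muscle cadherin Cdh15 and Cdh13 lower and Cdh2, Cdh11 and Cdh19 higher. Cdh15 was at 1.6, 3.77 and 4.95 against 52 and 32.4 FPKM (log2 difference -3.33 ± 0.34 SE, adjusted p = 4.45e-06). Cdh13 stood at 34.1, 30.4 and 32.8 against 154 and 93.1 FPKM and Cdh2 at 9.56, 11.8 and 13.6 against 1.48 and 0.735 FPKM. Cdh11 was at 20.7, 18.1 and 14.1 against 0.272 and 0.230 FPKM and Cdh19 at 57.3, 41.4 and 15.1 against 0.280 and 0.0764 FPKM. Connexins, the gap junction proteins, were higher in 7 of 8 cases with 0 lower, but 6 passed only through SMMC and 1 of the 2 detected in both was higher. Gja1 and Gja4 were among those higher. Gja1 stood at 485, 378 and 367 against 51.3 and 52.5 FPKM (log2 difference 2.95 ± 0.37 SE, adjusted p = 2.24e-05). Gja4 was at 25.6, 30.9 and 42.9 against 0.507 and 0.328 FPKM (log2 difference 4.56 ± 0.25 SE, adjusted p = 3.1e-08). Claudin 1 of perineurial cells, Cldn1, stood at 63.7, 178 and 204 against 0.248 and 0.469 FPKM and the endothelial Cldn5 at 25.9, 28.8 and 30.9 against 0.531 and 0.371 FPKM. Among immunoglobulin-type molecules Esam was higher, and Igsf3 and Ncam1 were lower. Esam stood at 60.7, 110.4 and 130.1 against 1.68 and 1.44 FPKM. Igsf3 was at 9.95, 13.7 and 10.3 against 1150.3 and 1579.9 FPKM. Ncam1 stood at 14, 10.3 and 7.15 against 419 and 626 FPKM. Heparan sulfate carriers divided by member: Sdc1, Sdc2 and Gpc3 were higher, Gpc1 and Sdc4 lower. Sdc1 was at 84.8, 74.7 and 89.5 against 13.1 and 12.7 FPKM and Sdc2 at 91.4, 99.3 and 112 against 29.1 and 18.5 FPKM. Gpc3 stood at 148, 73.7 and 63.9 against 6.17 and 7.22 FPKM and Gpc1 at 22.4, 17 and 19.7 against 172 and 123 FPKM (log2 difference -2.83 ± 0.27 SE, adjusted p = 2.53e-06). Sdc4 was at 515, 511 and 424 against 25697 and 36853 FPKM. Genes of the neuromuscular junction were lower in 5 and higher in 2 of 11 cases (1 higher and 5 lower of the 7 detected in both populations). The agrin receptor kinase Musk, its co-receptor Lrp4, the receptor subunits Chrna1 and Chrnb1 and the clustering protein Rapsn were lower, while the ligand Agrn and the esterase Ache were higher. Musk stood at 30.1, 30.1 and 14.6 against 889 and 1249.6 FPKM (log2 difference -5.42 ± 0.34 SE, adjusted p = 7.25e-08), Lrp4 at 1.16, 1.17 and 0.754 against 7.56 and 13.1 FPKM and Chrna1 at 7.26, 4.07 and 1.78 against 31.1 and 17.4 FPKM. Chrnb1 was at 26.7, 30.5 and 18.5 against 92.7 and 76 FPKM and Rapsn at 2.03, 2.4 and 2.79 against 12 and 7.1 FPKM. Agrn stood at 14, 17.6 and 19.4 against 2.95 and 5.11 FPKM (log2 difference 1.86 ± 0.30 SE, adjusted p = 0.000155) and Ache at 4.07, 5.43 and 4.45 against 0.295 and 0.198 FPKM.

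In receptor signalling, the 2 populations often carried different members of one family. The FGF receptors Fgfr1 and Fgfr4 were lower in SMMC, Fgfr1 without a call when MuSC replicate 1 was left out (adjusted p = 0.0782). Fgfr1 was at 163, 149.7 and 119 against 348 and 307 FPKM (log2 difference -1.19 ± 0.36 SE, adjusted p = 0.0123). Fgfr4 stood at 2.2, 7.59 and 4.87 against 30.1 and 30.8 FPKM (log2 difference -2.53 ± 0.47 SE, adjusted p = 0.00045). Feedback inhibitors of the same pathway went both ways, with Spry2, Spry4 and Spred1 lower and Spry1, Spred2, Dusp5 and Dusp6 higher. Spry2 was at 6.67, 10.6 and 14.4 against 1768 and 2598 FPKM and Spry4 at 39.3, 46.2 and 78.9 against 167 and 238 FPKM. Spred1 stood at 17, 22 and 23.8 against 42.4 and 41 FPKM and Spry1 at 18.2, 31.6 and 34.9 against 10.5 and 9.15 FPKM (log2 difference 1.39 ± 0.26 SE, adjusted p = 0.000552). Spred2 was at 6.52, 7.09 and 8.89 against 1.55 and 1.09 FPKM, Dusp5 at 52.3, 66.1 and 55.5 against 3.04 and 2.61 FPKM and Dusp6 at 93.8, 90.2 and 90.6 against 21.8 and 18.8 FPKM (log2 difference 2.12 ± 0.29 SE, adjusted p = 4.91e-05). Dusp3, a phosphatase of MAP kinases, was lower, and Dusp1, which early stimuli induce, higher. Dusp3 stood at 9.44, 11.5 and 11 against 319 and 549 FPKM (log2 difference -5.17 ± 0.22 SE, adjusted p = 6.31e-09). Dusp1 was at 730.3, 827 and 774 against 60.5 and 83.2 FPKM. The ETS genes Etv1 and Etv4, known targets of this pathway, were higher, and Etv5 was not called. Etv1 stood at 22.4, 24.9 and 23.7 against 0.408 and 0.416 FPKM. Etv4 was at 5.73, 4.53 and 4.38 against 0.223 and 0.0262 FPKM. Etv5 stood at 8.88, 9.84 and 9.34 against 9.4 and 6.29 FPKM. Spry1 was not called after centring within bins of transcript length or of GC content (adjusted p = 0.136 and 0.421).

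Notch pathway genes gave 7 higher and 5 lower of 19 (2 higher and 5 lower of the 14 detected in both populations), but 6 and 6 after rescaling by trimmed mean of M-values, 4 and 6 after quantile normalization, 5 and 6 after centring by length and 4 and 8 after centring by GC content. The receptor Notch2 and the ligand Jag1 were lower in SMMC. Notch2 was at 6.74, 6.67 and 7.05 against 167 and 272 FPKM (log2 difference -4.78 ± 0.26 SE, adjusted p = 2.86e-08). Jag1 stood at 5.24, 12.6 and 15.4 against 149 and 232 FPKM (log2 difference -4.06 ± 0.40 SE, adjusted p = 3.19e-06). Notch3, the receptor of mural cells, was higher in each SMMC library than in MuSC (99.3, 206 and 267 against 71.1 and 82 FPKM). No difference was called (adjusted p = 0.162), except in a fit of the 5 fresh libraries alone (adjusted p = 0.0169). Among target genes Hes1 and Nrarp were near 0 in MuSC and higher in SMMC, whereas Hey1 and Heyl overlapped between the populations and were not called. Hes1 was at 38.5, 79.2 and 109 against 0.364 and 0.697 FPKM (log2 difference 5.53 ± 0.43 SE, adjusted p = 4.39e-07). Nrarp stood at 33.8, 56.4 and 84.3 against 0.254 and 0.135 FPKM (log2 difference 5.54 ± 0.36 SE, adjusted p = 1.04e-07). Hey1 was at 7.18, 12.1 and 12 against 5.45 and 7.77 FPKM and Heyl at 48.2, 92.8 and 168 against 73.8 and 55.9 FPKM.

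Wnt genes held members on both sides. Of 5 ligands tested 5 were higher, and 5 passed only through SMMC, with Wnt11 at 12.4, 9.65 and 8.55 against 0.137 and 0.219 FPKM. The count of higher ligands was 3 without either MuSC library. Antagonists and target genes gave 11 higher and 3 lower of 14, but 10 passed only through SMMC (1 higher and 2 lower of the 3 detected in both populations). The secreted or intracellular inhibitors Sfrp5, Dkk3, Nkd1 and Nkd2 were higher. Sfrp5 stood at 233, 303 and 338 against 1.05 and 0.444 FPKM (log2 difference 7.39 ± 0.25 SE, adjusted p = 2.58e-09). Dkk3 was at 46, 33.9 and 28.2 against 0.0826 and 0.194 FPKM (log2 difference 5.0 ± 0.61 SE, adjusted p = 1.78e-05). Nkd1 stood at 31.1, 47.4 and 68.4 against 0 and 0 FPKM and Nkd2 at 30.6, 27.5 and 18.4 against 0.0536 and 0.205 FPKM. Frizzled and coreceptor genes gave 9 higher and 4 lower of 16 (3 higher and 4 lower of the 10 detected in both populations), but 4 and 6 after quantile normalization and 3 and 5 after centring by GC content. The receptors Fzd1 and Fzd7 were higher, and the R-spondin receptor Lgr4, the ubiquitin ligase Znrf3 that removes Frizzled and the nuclear effector Tcf7l2 were lower. Fzd1 was at 45.6, 46.5 and 41.3 against 1.64 and 2.25 FPKM and Fzd7 at 8.35, 13.6 and 14.6 against 1.13 and 0.715 FPKM. Lgr4 stood at 1.07, 1.87 and 1.92 against 28.7 and 48 FPKM (log2 difference -3.88 ± 0.26 SE, adjusted p = 1.33e-07) and Znrf3 at 5.2, 6.99 and 5.98 against 196 and 263 FPKM (log2 difference -5.02 ± 0.27 SE, adjusted p = 2.33e-08). Tcf7l2 was at 11.1, 12.6 and 10.8 against 112 and 163 FPKM (log2 difference -3.44 ± 0.27 SE, adjusted p = 5.29e-07).

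BMP and GDF ligands gave 9 higher and 2 lower of 14, but 7 passed only through SMMC (2 higher and 2 lower of the 7 detected in both populations). The lower count was 1 without MuSC replicate 2. Bmp5, Bmp2 and Mstn, myostatin, were higher and Bmp4 lower, Bmp4 without a call when MuSC replicate 2 was left out (adjusted p = 0.051) or with a pseudocount of 0.1 FPKM in place of 1 (adjusted p = 0.0922). Bmp5 stood at 25.5, 39.7 and 57.8 against 0.104 and 0.0113 FPKM (log2 difference 5.24 ± 0.40 SE, adjusted p = 3.79e-07). Bmp2 was at 14.9, 14 and 17.9 against 1.68 and 1.74 FPKM and Mstn at 12.7, 27.4 and 19.7 against 0 and 0.148 FPKM. Bmp4 stood at 9.84, 12.1 and 11.8 against 32 and 39.5 FPKM (log2 difference -1.58 ± 0.41 SE, adjusted p = 0.00484). BMP and TGF-beta antagonists gave 8 higher and 2 lower of 14 (3 higher and 2 lower of the 8 detected in both populations), with 1 lower without SMMC replicate 1 or MuSC replicate 1. The antagonists Chrdl1, Nbl1 and Fst, follistatin, were higher, while Ltbp1, which stores latent TGF-beta, was lower. Chrdl1 was at 22.1, 23.7 and 21 against 0.0789 and 0.0717 FPKM and Nbl1 at 105, 110.4 and 125 against 5.73 and 5.26 FPKM (log2 difference 4.14 ± 0.25 SE, adjusted p = 5.65e-08). Fst stood at 9.49, 23.9 and 43.8 against 0.314 and 0.277 FPKM. Ltbp1 was at 37.1, 31 and 34.6 against 189 and 169.6 FPKM (log2 difference -2.36 ± 0.24 SE, adjusted p = 3.83e-06). The receptors Tgfbr2 and Eng, endoglin, were higher. Tgfbr2 stood at 266, 179 and 192 against 24.7 and 24.5 FPKM (log2 difference 3.04 ± 0.35 SE, adjusted p = 1.08e-05). Eng was at 32.5, 39.9 and 37.4 against 1.68 and 1.99 FPKM. Of the TGF-beta target genes, Tgfbi was higher, and the feedback genes Pmepa1 and Skil were lower. Tgfbi stood at 83.4, 68.2 and 48.6 against 6.77 and 2.94 FPKM. Pmepa1 was at 29.8, 26.4 and 21.6 against 443 and 723 FPKM (log2 difference -4.41 ± 0.31 SE, adjusted p = 1.9e-07). Skil stood at 102, 69.6 and 90.5 against 798 and 1432 FPKM. Among YAP and TEAD targets Cyr61 and Axl were higher, Ankrd1 and Amotl1 lower, and Ctgf was not called, except without MuSC replicate 1 (adjusted p = 0.0303). Cyr61 was at 929, 1340 and 1426 against 236 and 226 FPKM (log2 difference 2.38 ± 0.51 SE, adjusted p = 0.00134) and Axl at 167, 158 and 63.9 against 19.5 and 9.74 FPKM. Ankrd1 stood at 12.3, 12 and 6.56 against 66.4 and 98.7 FPKM (log2 difference -2.90 ± 0.39 SE, adjusted p = 4.08e-05). Amotl1 was at 45.1, 50.2 and 41.1 against 228 and 332 FPKM and Ctgf at 205, 150.2 and 157 against 185 and 40.1 FPKM.

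Of the insulin-like growth factor axis, the binding proteins Igfbp6 and Igfbp7 were high in SMMC and near 1 to 3 FPKM in MuSC, and the receptors Igf1r and Igf2r were lower. Igfbp6 stood at 909, 1066 and 963 against 2.47 and 3.42 FPKM (log2 difference 7.96 ± 0.44 SE, adjusted p = 2.89e-08) and Igfbp7 at 487, 437 and 447 against 1.17 and 1.18 FPKM (log2 difference 7.72 ± 0.95 SE, adjusted p = 1.9e-05). Igf1r was at 8.37, 12.6 and 11.4 against 57.9 and 80.7 FPKM (log2 difference -2.58 ± 0.24 SE, adjusted p = 2.25e-06). Igf2r stood at 22.1, 28.9 and 30.1 against 198 and 194 FPKM (log2 difference -2.83 ± 0.35 SE, adjusted p = 2.04e-05). PDGF genes were higher in 6 of 7 cases, though 4 passed only through SMMC and 2 of the 3 detected in both were higher, with the mural receptor Pdgfrb at 106, 175 and 231 against 2.42 and 2.12 FPKM. Among neurotrophic genes the neurotrophin receptor Ntrk2 was higher, and Ret, the receptor kinase for GDNF ligands, and Lifr were lower. Ntrk2 was at 88.9, 61.2 and 59.4 against 0.267 and 0.586 FPKM (log2 difference 5.62 ± 0.24 SE, adjusted p = 6.33e-09). Ret stood at 6.37, 4.17 and 9.28 against 97.3 and 141 FPKM (log2 difference -4.02 ± 0.75 SE, adjusted p = 0.00049). Lifr was at 11.6, 12.9 and 16.4 against 89.3 and 148 FPKM. Among angiogenic genes Flt1, Nrp2 and Angpt2 were higher, and the ligand Vegfa and the angiopoietin receptor Tek lower. Flt1 stood at 9.37, 16.8 and 16.9 against 0.116 and 0.667 FPKM and Nrp2 at 29.3, 28.4 and 33 against 0.422 and 0.449 FPKM. Angpt2 was at 7.93, 13.4 and 10.7 against 0.431 and 0.0280 FPKM and Vegfa at 3.81, 3.87 and 3.25 against 10.6 and 12.4 FPKM (log2 difference -1.43 ± 0.26 SE, adjusted p = 0.000359). Tek stood at 2.3, 1.18 and 4.71 against 33.7 and 20.3 FPKM (log2 difference -2.98 ± 0.37 SE, adjusted p = 1.85e-05).

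**Figure D3:**
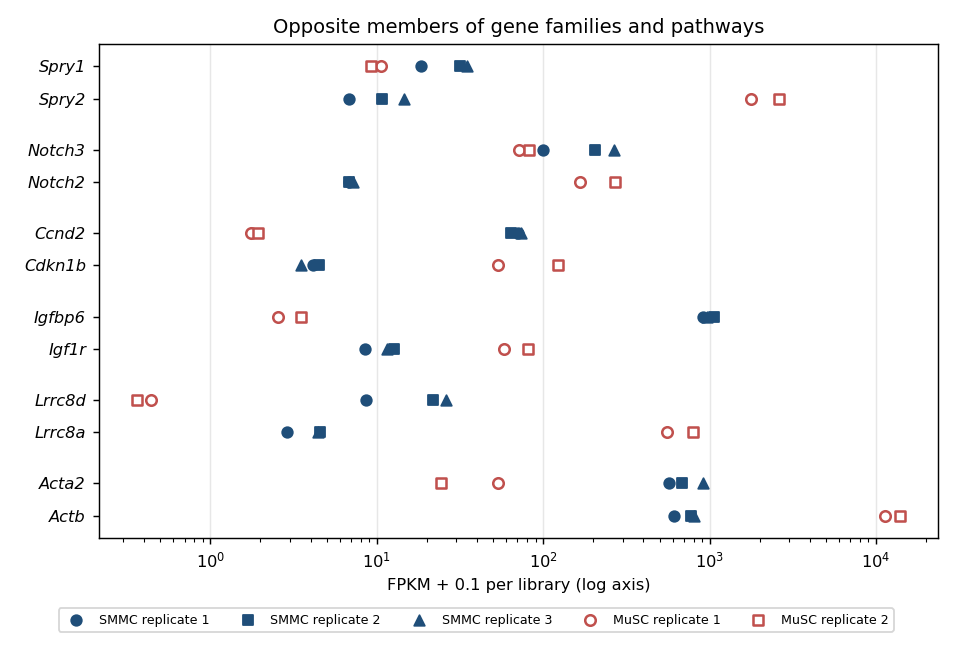
FPKM (log axis, with 0.1 added for display) of 12 genes in each library, paired by family: Spry1 and Spry2, Notch3 and Notch2, Ccnd2 and Cdkn1b, Igfbp6 and Igf1r, Lrrc8d and Lrrc8a, and Acta2 and Actb. Filled points are SMMC libraries and open points MuSC libraries, and for each pair the first gene was higher and the second lower in SMMC, without a call for Notch3.

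Transcription factor families were also divided. Sox factors gave 8 higher and 3 lower of 11 (1 higher and 3 lower of the 4 detected in both populations) and Fox factors 9 and 5 of 16 (3 higher and 5 lower of the 10 detected in both populations). The Fox counts were 6 and 7 after quantile normalization and 5 and 7 after centring by GC content. The 3 called members of the nuclear factor I family of 4 were lower: Nfia, Nfib and Nfix. Nfia was at 10.4, 11.1 and 10.6 against 907 and 1368 FPKM. Nfib stood at 36.5, 45.8 and 44.6 against 542 and 783 FPKM (log2 difference -3.92 ± 0.29 SE, adjusted p = 2.87e-07). Nfix was at 35.1, 34.3 and 22.5 against 86.7 and 77 FPKM (log2 difference -1.41 ± 0.22 SE, adjusted p = 0.00014). Sox9 and Sox11 were lower, while Sox10, a factor of glia, and Sox13 were higher. Sox9 stood at 46.7, 35.6 and 25 against 493 and 843 FPKM (log2 difference -4.18 ± 0.28 SE, adjusted p = 1.38e-07) and Sox11 at 1.58, 2.22 and 1.29 against 704 and 1369.8 FPKM. Sox10 was at 23.4, 17.7 and 20.01 against 0.0426 and 0.00459 FPKM (log2 difference 4.38 ± 0.22 SE, adjusted p = 1.64e-08). Sox13 stood at 16.4, 20.9 and 33.6 against 0.246 and 1.56 FPKM. Klf13 was lower, while Klf2, a flow-responsive factor, Klf3 and Klf5 were higher. Klf13 was at 10.1, 14 and 14.8 against 582 and 950 FPKM (log2 difference -5.75 ± 0.27 SE, adjusted p = 9.38e-09). Klf2 stood at 8.52, 14.1 and 13.7 against 0.177 and 0.234 FPKM and Klf3 at 17.2, 22.1 and 19.7 against 1.57 and 2.31 FPKM. Klf5 was at 10.3, 14.1 and 13 against 1.01 and 0.607 FPKM. In the forkhead family Foxn2 and Foxn3 were lower and Foxs1 higher. Foxn2 stood at 14, 19.8 and 21.3 against 155 and 163 FPKM. Foxn3 was at 18.2, 22.6 and 12.7 against 288 and 337 FPKM (log2 difference -4.09 ± 0.27 SE, adjusted p = 1.24e-07). Foxs1 stood at 19.7, 27 and 29.6 against 0.103 and 0.212 FPKM (log2 difference 4.50 ± 0.49 SE, adjusted p = 7.27e-06). Ets1 stood at 32.1, 32.2 and 32.1 against 308 and 416 FPKM (log2 difference -3.44 ± 0.22 SE, adjusted p = 8.18e-08). Among nuclear receptors Esr1, estrogen receptor alpha, was lower, and the T-box factors Tbx2 and Tbx15 were higher. Esr1 was at 2.01, 1.69 and 2.46 against 87 and 161 FPKM (log2 difference -5.30 ± 0.27 SE, adjusted p = 1.67e-08). Tbx2 stood at 7.39, 9.84 and 18.4 against 0.0247 and 0.0215 FPKM. Tbx15 was at 19.96, 15.5 and 22.3 against 2.71 and 3.5 FPKM. Hox genes were low in absolute level, 16 of 39 were tested and 11 were higher with 0 lower, but 11 passed only through SMMC (3 higher and 0 lower of the 5 detected in both populations). The Hox counts were 5 and 0 after quantile normalization, 2 and 2 after centring by length and 5 and 0 after centring by GC content.

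The myogenic factors were not uniform. Myod1 stood at 81.9, 90.04 and 44.9 FPKM in fresh SMMC against 372 and 256 in MuSC (log2 difference -2.14 ± 0.30 SE, adjusted p = 5.54e-05). Myog, which acts later in differentiation, was higher in SMMC (19.5, 8.64 and 14.6 against 3.53 and 2.38 FPKM; log2 difference 1.90 ± 0.40 SE, adjusted p = 0.00129). Mef2c, a transcription factor of both skeletal and vascular muscle, was higher as was Mef2a, though not without MuSC replicate 2 (adjusted p = 0.0557). Mef2c stood at 15.1, 27 and 37.7 against 0.321 and 0.276 FPKM (log2 difference 4.32 ± 0.41 SE, adjusted p = 2.07e-06). Mef2a was at 15.5, 18.8 and 24 against 7.46 and 6.45 FPKM. Myog was not called after centring within bins of transcript length (adjusted p = 0.0939). Among circadian genes Per1, Cry1 and Cry2 were higher and Clock and Bhlhe41 lower. Per1 stood at 37.9, 51.8 and 57.3 against 4.91 and 6.25 FPKM (log2 difference 2.91 ± 0.26 SE, adjusted p = 1.43e-06) and Cry1 at 23.2, 26.4 and 25.7 against 6.06 and 6.92 FPKM. Cry2 was at 147, 156 and 141 against 33.9 and 29.7 FPKM (log2 difference 2.18 ± 0.23 SE, adjusted p = 5.59e-06) and Clock at 19.2, 25.9 and 12.3 against 83.6 and 80.8 FPKM (log2 difference -2.11 ± 0.32 SE, adjusted p = 9.66e-05). Bhlhe41 stood at 3.45, 2.11 and 3.24 against 81.4 and 153 FPKM (log2 difference -4.86 ± 0.35 SE, adjusted p = 2.51e-07). The family count was 5 higher and 4 lower of 17 (5 higher and 4 lower of the 15 detected in both populations), but 5 and 6 after rescaling by trimmed mean of M-values, 5 and 8 after quantile normalization, 4 and 8 after centring by length and 5 and 8 after centring by GC content. Without MuSC replicate 1 the lower count was 2.

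Immediate early and NF-kB target genes were mostly higher in SMMC. Of 16 genes in a list of Nr4a and other immediate early genes 11 were higher and 3 lower (10 higher and 3 lower of the 15 detected in both populations), and of 19 NF-kB genes 14 were higher and 2 lower (13 higher and 2 lower of the 18 detected in both populations). A separate list of AP-1 and Egr factors, which holds Jun, Junb, Atf3, Fosb and Fosl1, gave 7 higher and 1 lower of 13 (6 higher and 1 lower of the 11 detected in both populations). Junb, Jun, Ier2 and Atf3 stood well above MuSC, whereas Fosb, Btg2 and Fosl1 were not called. Junb was at 705, 992 and 1218 against 30.8 and 31.8 FPKM (log2 difference 4.88 ± 0.38 SE, adjusted p = 4.39e-07), Jun at 1480.1, 1852 and 1887 against 73.4 and 153 FPKM (log2 difference 4.02 ± 0.31 SE, adjusted p = 3.83e-07) and Ier2 at 539, 615 and 640.0 against 42.1 and 29.5 FPKM (log2 difference 4.04 ± 0.28 SE, adjusted p = 1.71e-07). Atf3 stood at 351, 489 and 578 against 92.1 and 91.6 FPKM and Fosb at 215, 276 and 257 against 116 and 195 FPKM. Btg2 was at 205, 395 and 468 against 330.0 and 631 FPKM and Fosl1 at 18.4, 20.2 and 10.9 against 19.3 and 17.9 FPKM. Both were called lower by limma after centring. Btg2 was at -1.41 by length (adjusted p = 0.00695) and -1.10 by GC content (adjusted p = 0.0328). Fosl1 was at -1.38 by length (adjusted p = 0.0227) and -1.40 by GC content (adjusted p = 0.0233). Btg1, an antiproliferative gene, was lower (759.6, 1117 and 1322 against 2637 and 4039.8 FPKM; log2 difference -1.65 ± 0.38 SE, adjusted p = 0.00222). Immediate early genes are switched on within minutes of a stimulus, and NF-kB targets include its own inhibitors. Il6, Ccl2, Icam1 and the inhibitor Nfkbia were higher, and Nfkb1 lower. Il6 stood at 373, 396 and 424 against 5.95 and 8.97 FPKM (log2 difference 5.58 ± 0.23 SE, adjusted p = 4.66e-09) and Ccl2 at 1210.1, 981 and 1059.8 against 109 and 119 FPKM (log2 difference 3.23 ± 1.03 SE, adjusted p = 0.0148). Icam1 was at 648, 548 and 483 against 55.9 and 52.8 FPKM and Nfkbia at 749.6, 709.7 and 745 against 226 and 163 FPKM. Nfkb1 stood at 165, 173 and 159 against 292 and 291 FPKM. Ccl2 lost its call without either MuSC library (adjusted p = 0.0755 and 0.0819) and without a filter on low values (adjusted p = 0.0619), and Nfkb1 without SMMC replicate 3 or either MuSC library (adjusted p = 0.0539 to 0.0868). The NF-kB count was 9 higher without MuSC replicate 1, and 1 lower without SMMC replicate 3 or either MuSC library. The count of lower immediate early genes was 1 without MuSC replicate 2. Chemokines and cytokines of stromal cells were high in SMMC. Ccl11 stood at 792, 959 and 1039 against 15 and 6.23 FPKM (log2 difference 6.43 ± 0.36 SE, adjusted p = 3.32e-08) and Cxcl12 at 337, 787 and 1189 against 17.7 and 14.4 FPKM. Il33, an alarm cytokine of stromal cells, was at 116, 177 and 161 against 0.981 and 1.44 FPKM (log2 difference 6.09 ± 0.44 SE, adjusted p = 2.41e-07) and Il34 at 54.5, 73.5 and 96.5 against 1.84 and 0.670 FPKM. Cxcl12 was lowest in replicate 1 and highest in replicate 3, as the pericyte markers were. The receptor Cxcr4, which binds Cxcl12, was on the MuSC side, as was Il1r1. Cxcr4 was at 0.111, 0.111 and 0.274 against 17 and 22.7 FPKM (log2 difference -4.15 ± 0.19 SE, adjusted p = 7.94e-09). Il1r1 stood at 55.7, 83.2 and 103 against 297 and 229 FPKM (log2 difference -1.73 ± 0.30 SE, adjusted p = 0.000322).

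Complement genes gave 11 higher and 0 lower of 16 (8 higher and 0 lower of the 10 detected in both populations). C1s1 stood at 142, 189 and 269 against 1.66 and 1.75 FPKM (log2 difference 6.17 ± 0.27 SE, adjusted p = 6.45e-09) and C2 at 48.3, 75.3 and 85.6 against 1.62 and 1.16 FPKM (log2 difference 4.85 ± 0.37 SE, adjusted p = 3.64e-07). Interferon response genes gave 13 higher and 0 lower of 26 (11 higher and 0 lower of the 21 detected in both populations), a share near the 45.5% over all genes tested. Ifit2 stood at 13.9, 12 and 18.6 against 1.56 and 1.45 FPKM and Cxcl10 at 59.4, 51.8 and 70.1 against 3.88 and 3.53 FPKM. The interferon count was 7 higher without MuSC replicate 2, and 1 complement gene was lower without SMMC replicate 2. For antigen presentation B2m, the light chain of class I molecules, was higher and the heavy chain gene H2-K1 lower. B2m was at 565, 549 and 486 against 74.1 and 82.4 FPKM (log2 difference 2.75 ± 0.32 SE, adjusted p = 1.03e-05). H2-K1 stood at 261, 228 and 249 against 589 and 1037 FPKM (log2 difference -1.67 ± 0.24 SE, adjusted p = 7.17e-05). H2 genes are closely related, and shared reads make their single values uncertain. Blood cell markers summed to at most 525 FPKM in SMMC, highest in replicate 1, and their part in these families was not tested.

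Inducible heat shock genes were high in SMMC. Cells induce these chaperones through heat shock factors, which bind inverted GAA repeats in promoters. The family of chaperonins and heat shock proteins gave 16 higher and 10 lower of 39 (14 higher and 9 lower of the 36 detected in both populations), with a median 0.39 on the log2 scale against 0.545 over all genes. The counts were 12 and 21 after centring by length and 9 and 14 after centring by GC content. The lower count was 5 without SMMC replicate 3 and 6 without MuSC replicate 1. Hspa1a stood at 1734, 3739.7 and 4853 against 45.2 and 147 FPKM (log2 difference 5.25 ± 0.48 SE, adjusted p = 1.64e-06). Hspb1 was at 1516, 3524 and 4241 against 42.4 and 85.9 FPKM (log2 difference 5.53 ± 0.39 SE, adjusted p = 2.1e-07). In both genes replicate 1 was the lowest SMMC library and replicate 3 the highest, and every SMMC library lay above both MuSC libraries. Hspa1b (649.9, 1302 and 1682 against 24.1 and 82 FPKM) is nearly identical to Hspa1a, so reads may be split between them. The co-chaperone Dnajb4 was higher, whereas Hsf2, heat shock factor 2, was lower. Dnajb4 was at 52.4, 161 and 201 against 21.6 and 25.6 FPKM (log2 difference 2.30 ± 0.44 SE, adjusted p = 0.000581). Hsf2 stood at 1.17, 1.14 and 1.32 against 39.2 and 61 FPKM (log2 difference -4.50 ± 0.27 SE, adjusted p = 6.4e-08). The motif GAANNTTC, which reads the same on both strands, was found in the 300-base promoter windows of 10 of the 32 tested family members with a window (31.3%) and of 633 of 9006 genes tested with a window (7.03%). These windows run from 250 bases before to 50 bases after the transcription start in RefSeq, build GRCm38.p6. Windows on 1 chromosome were left out of both shares. Of family members called higher 6 of 15 held it, of those lower 2 of 8 and of those not called 2 of 9. Of the DnaJ co-chaperones, which include Dnajb4, 0 of 14 called higher, 0 of 4 lower and 4 of 13 not called held it. The windows of Hspb1 and Hspa1a are shown as the promoters of these results with the motif in capitals, Hspb1 at chr5:135887669-135887968 on the plus strand and Hspa1a at chr17:34972107-34972406 on the minus strand.
Hspb1: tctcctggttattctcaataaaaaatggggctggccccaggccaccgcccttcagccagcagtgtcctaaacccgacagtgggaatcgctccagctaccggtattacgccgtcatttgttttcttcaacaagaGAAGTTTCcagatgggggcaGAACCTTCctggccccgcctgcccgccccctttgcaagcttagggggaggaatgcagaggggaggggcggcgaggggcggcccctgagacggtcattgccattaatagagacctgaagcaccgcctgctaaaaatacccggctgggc
Hspa1a: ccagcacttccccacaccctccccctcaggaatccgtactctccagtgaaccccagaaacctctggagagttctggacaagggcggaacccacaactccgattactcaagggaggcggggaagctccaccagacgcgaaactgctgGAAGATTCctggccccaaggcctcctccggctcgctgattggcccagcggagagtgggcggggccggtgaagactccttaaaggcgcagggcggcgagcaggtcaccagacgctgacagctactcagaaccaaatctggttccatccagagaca
Hspb1 held 2 matches, starting 117 and 97 bases before the transcription start, and Hspa1a 1 match 104 bases before it. The windows of Hspa1a and Hspa1b were identical at 296 of 300 positions.

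Genes of endoplasmic reticulum stress were divided. Unfolded protein response genes gave 6 higher and 8 lower of 24, all detected in both populations, with Hspa5, Herpud1 and Chac1 on the MuSC side. Hspa5, the chaperone BiP, stood at 3235, 3649.7 and 2462 against 11954 and 9238 FPKM (log2 difference -1.77 ± 0.26 SE, adjusted p = 8.4e-05). Herpud1 was at 226, 221 and 166 against 576 and 638 FPKM and Chac1 at 5.59, 6.69 and 3.88 against 39.9 and 30.1 FPKM. The lower count was 5 without MuSC replicate 1. Ddit3, Xbp1 and Dnajb9 were higher in SMMC, and Atf4 was not called (224, 254 and 237 against 199.9 and 181 FPKM; adjusted p = 0.126). Ddit3 was at 41, 63.8 and 80.5 against 10.1 and 6.29 FPKM (log2 difference 2.75 ± 0.38 SE, adjusted p = 4.99e-05). Xbp1 stood at 142, 164 and 127 against 35.8 and 32.4 FPKM (log2 difference 2.04 ± 0.19 SE, adjusted p = 2.13e-06). Dnajb9 was at 124, 107 and 74.5 against 22.7 and 18.2 FPKM. Superoxide dismutases split, with the cytosolic Sod1 lower and the extracellular Sod3 higher. Sod1 stood at 14.7, 11.3 and 14.5 against 531 and 448 FPKM (log2 difference -5.08 ± 0.19 SE, adjusted p = 2.58e-09). Sod3 was at 109, 63 and 57.6 against 7.1 and 7.5 FPKM (log2 difference 3.17 ± 0.30 SE, adjusted p = 2.44e-06).

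Several families of chromatin, RNA and translation genes lay below the all-gene median. Lysine methyltransferases and demethylases gave 9 higher and 24 lower of 44 (5 higher and 20 lower of the 34 detected in both populations; relative median -1.18). Kdm6b, a demethylase of histone H3 lysine 27, stood at 15.5, 17.4 and 18.8 against 519.5 and 683 FPKM (log2 difference -5.04 ± 0.22 SE, adjusted p = 6.65e-09). Kdm5c was at 3.55, 4.57 and 4.23 against 35.2 and 37.5 FPKM and Kdm2a at 7.77, 7.66 and 9.43 against 59.6 and 54.6 FPKM. Clustered histone genes gave 18 higher and 0 lower of 24 (5 higher and 0 lower of the 7 detected in both populations; relative median 0.68), and 7 and 1 after quantile normalization. Polycomb genes gave 10 higher and 4 lower of 24 (4 higher and 4 lower of the 16 detected in both populations; relative median -0.03), but 6 and 6 after quantile normalization and 4 and 8 after centring by length. Aminoacyl-tRNA synthetases, which charge tRNAs, were all detected in both populations, and 10 of 20 were lower and 2 higher. Nars stood at 85.3, 96.2 and 74 against 570.4 and 326 FPKM (log2 difference -2.33 ± 0.25 SE, adjusted p = 5.63e-06). Mars, on the other side, was at 17.9, 20.7 and 15.6 against 4.1 and 4.48 FPKM. Splicing factors were lower in 14 and higher in 7 of 42 cases (6 higher and 14 lower of the 41 detected in both populations), led by Hnrnpa1 and Srsf2. Hnrnpa1 stood at 14.8, 27.2 and 20.8 against 449 and 305 FPKM (log2 difference -4.12 ± 0.45 SE, adjusted p = 6.91e-06). Srsf2 was at 105, 121 and 97.2 against 951 and 1560 FPKM (log2 difference -3.49 ± 0.34 SE, adjusted p = 2.54e-06). Without MuSC replicate 1 the splicing count was 7 lower and 11 higher. Translation initiation factors gave 11 higher and 17 lower of 53 (10 higher and 17 lower of the 52 detected in both populations), with the cap complex members Eif4a1 and Eif4e lower. Eif4a1 stood at 274, 284 and 201 against 1122 and 965 FPKM. Eif4e was at 111, 107 and 85.3 against 286 and 298 FPKM. Cytosolic ribosomal proteins gave 24 lower and 8 higher of 78 (7 higher and 24 lower of the 76 detected in both populations) with a median of -0.25, and 45 lower and 4 higher after rescaling by trimmed mean of M-values. This count turned with the MuSC library used, to 10 lower and 22 higher without MuSC replicate 1 and 47 lower and 4 higher without MuSC replicate 2. Rps25 stood apart from them (171, 163 and 120.2 against 2204 and 2192 FPKM; log2 difference -3.87 ± 0.20 SE, adjusted p = 1.64e-08). Many ribosomal and Hnrnpa1 copies lie elsewhere in the genome as pseudogenes, so these single values are uncertain. Nuclear genes of oxidative phosphorylation (42 higher, 3 lower of 80, and 39 and 3 of the 73 detected in both), mitochondrial ribosomal proteins (35 and 7 of 74, and 34 and 7 of the 73 detected in both) and proteasome subunits (24 and 4 of 48, and 24 and 4 of the 46 detected in both) had relative medians of 0.16, 0.03 and 0.04. Centring within bins of transcript length changed these counts to 28 higher and 20 lower, 16 and 23, and 9 and 20. Centring by GC content gave 19 and 15, 12 and 19, and 11 and 12. Cox4i2, an isoform of a cytochrome oxidase subunit, stood apart (44.8, 106 and 149 against 1.3 and 0.899 FPKM; log2 difference 5.43 ± 0.41 SE, adjusted p = 3.22e-07). Without MuSC replicate 2 the higher counts of these 3 families were 27, 19 and 14, and without MuSC replicate 1 the lower counts of the first and second were 1 and 2. Without SMMC replicate 1 the lower count of mitochondrial ribosomal proteins was 4.

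Cell cycle regulators differed by member. Of 24 cell cycle genes listed, 14 reached the filter, with 3 higher and 4 lower (1 higher and 0 lower of the 6 detected in both populations). Top2a, which passed the filter only through MuSC, was lower in SMMC. Rrm2, the ribonucleotide reductase subunit of dividing cells, was lower too but is not on the cell cycle list. DNA replication and nucleotide supply genes gave 5 higher and 5 lower of 25 (5 higher and 3 lower of the 19 detected in both populations). Their counts were 3 and 8 after rescaling by trimmed mean of M-values and 2 and 16 after quantile normalization. Centring gave 2 and 16 by length and 2 and 12 by GC content. Top2a stood at 0.476, 0.672 and 0.0751 against 7.83 and 3.54 FPKM (log2 difference -2.19 ± 0.50 SE, adjusted p = 0.00201). Rrm2 was at 3.75, 4.51 and 1.02 against 26.8 and 26.8 FPKM (log2 difference -2.89 ± 0.46 SE, adjusted p = 0.000144). Ccnd2 and Ccnd3 were higher and Ccnd1 lower, Ccnd1 without a call when SMMC replicate 2 or either MuSC library was left out (adjusted p = 0.0512 to 0.0724). Ccnd2 stood at 70.7, 63.6 and 73.5 against 1.66 and 1.83 FPKM (log2 difference 4.68 ± 0.33 SE, adjusted p = 2.22e-07). Ccnd3 was at 61, 54 and 59.8 against 4.91 and 4.26 FPKM (log2 difference 3.41 ± 0.19 SE, adjusted p = 2.89e-08). Ccnd1 stood at 13.9, 8.53 and 8.72 against 21.4 and 20.3 FPKM. The CDK inhibitors Cdkn1c and Cdkn2d were higher, Cdkn1b lower and Cdkn1a was not called. Cdkn1c was at 257, 159 and 160.0 against 24.4 and 26.2 FPKM (log2 difference 2.84 ± 0.63 SE, adjusted p = 0.00177) and Cdkn2d at 36.5, 46.6 and 48.4 against 4.98 and 7.68 FPKM. Cdkn1b stood at 4.02, 4.38 and 3.41 against 53.7 and 123 FPKM (log2 difference -4.07 ± 0.36 SE, adjusted p = 1.25e-06). Cdkn1a was at 340.3, 363 and 314 against 262 and 327 FPKM. Imprinted genes gave 7 higher and 8 lower of 18 (6 higher and 8 lower of the 17 detected in both populations): Grb10, Peg3 and the noncoding Mirg were lower and Ndn, necdin, was higher. Grb10 stood at 36.1, 35.7 and 42.7 against 357 and 379.5 FPKM (log2 difference -3.24 ± 0.33 SE, adjusted p = 4.03e-06). Peg3 was at 20.2, 19.1 and 19 against 184 and 136 FPKM and Mirg at 27, 58.5 and 26.9 against 132 and 186 FPKM. Ndn stood at 23.7, 34.4 and 43.6 against 1.26 and 1.03 FPKM (log2 difference 3.99 ± 0.34 SE, adjusted p = 8.34e-07). Mirg was not called with a pseudocount of 0.1 FPKM (adjusted p = 0.104).

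Genes of lysosomes and vesicle traffic were mostly higher in SMMC. Lysosome genes gave 15 higher and 2 lower of 20 (13 higher and 2 lower of the 18 detected in both populations). V-ATPase subunits, which acidify the lysosome, gave 16 and 0 of 18 (14 higher and 0 lower of the 16 detected in both populations). Rab GTPases, which steer vesicles, gave 34 and 3 of 48 (22 higher and 2 lower of the 32 detected in both populations). Lamp1 stood at 162, 149.9 and 137 against 6.7 and 6.11 FPKM (log2 difference 4.34 ± 0.21 SE, adjusted p = 1.21e-08). Grn, progranulin, was at 238, 199 and 209 against 24.7 and 21.7 FPKM (log2 difference 3.16 ± 0.28 SE, adjusted p = 1.15e-06) and the calcium channel Mcoln1 at 29.4, 39.1 and 33.8 against 1.41 and 1.36 FPKM. Cd68, a lysosomal glycoprotein often used as a macrophage marker, was lower (4.65, 6.27 and 4.79 against 31.8 and 22.9 FPKM; log2 difference -2.18 ± 0.27 SE, adjusted p = 2.24e-05). Autophagy genes were mixed, 10 higher and 8 lower of 23 (9 higher and 8 lower of the 22 detected in both populations), and the balance turned to 7 and 8 after rescaling by trimmed mean of M-values, 8 and 9 after quantile normalization, 6 and 12 after centring by length and 6 and 11 after centring by GC content. Sqstm1 was higher and Atg7 lower. Sqstm1 was at 719.6, 560.1 and 442 against 127 and 112 FPKM. Atg7 stood at 2.32, 3.17 and 3.66 against 15.1 and 15.6 FPKM.

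Metabolic genes differed by isoform. Glycolysis genes gave 16 higher and 3 lower of 23 (13 higher and 3 lower of the 20 detected in both populations). Tpi1, Pgam1 and Ldhb were higher, whereas the entry steps Hk2, hexokinase 2, and Slc2a3, a neuronal-type glucose carrier, were lower and the carrier Slc2a1 higher. Tpi1 was at 46.1, 50.4 and 54.7 against 3.81 and 2.54 FPKM (log2 difference 3.64 ± 0.20 SE, adjusted p = 2.33e-08) and Pgam1 at 84.7, 68.3 and 54.1 against 14.2 and 10.02 FPKM. Ldhb stood at 17.8, 17.2 and 26.5 against 1.84 and 1.09 FPKM (log2 difference 3.12 ± 0.29 SE, adjusted p = 1.89e-06) and Hk2 at 24.7, 22.6 and 15.5 against 155 and 174 FPKM (log2 difference -2.94 ± 0.25 SE, adjusted p = 9.95e-07). Slc2a3 was at 18.1, 17.1 and 12.5 against 47.8 and 44.9 FPKM (log2 difference -1.50 ± 0.48 SE, adjusted p = 0.0157) and Slc2a1 at 70.1, 89.3 and 75.5 against 17.3 and 13.1 FPKM (log2 difference 2.29 ± 0.21 SE, adjusted p = 1.64e-06). Aldoa was not called (698, 713 and 767 against 908 and 538 FPKM). Slc2a3 lost its call without SMMC replicate 3 or either MuSC library (adjusted p = 0.0524 to 0.0843), with a pseudocount of 0.1 FPKM (adjusted p = 0.244) and without a filter on low values (adjusted p = 0.0524), and the lower count of the glycolysis list was 1 without SMMC replicate 3 or MuSC replicate 1. Of cholesterol genes 3 were higher and 6 lower of 23 (3 higher and 6 lower of the 22 detected in both populations), and the brakes on synthesis, Insig1 and Insig2, were lower. Insig1 stood at 13.1, 14.7 and 14.8 against 204 and 371 FPKM (log2 difference -4.18 ± 0.35 SE, adjusted p = 7.22e-07). Insig2 was at 68.8, 105 and 105 against 715 and 728 FPKM. For fatty acids the uptake genes Cd36, Fabp4 and Lpl were higher and the synthesis genes Fasn and Scd1 lower. Cd36 stood at 85.4, 167 and 197 against 1.27 and 2.2 FPKM (log2 difference 5.72 ± 0.40 SE, adjusted p = 1.75e-07). Fabp4 was at 103, 112 and 147 against 2.08 and 3.22 FPKM and Lpl at 13.3, 22.1 and 20.7 against 3.1 and 1.93 FPKM. Fasn stood at 27.8, 30.8 and 39.5 against 80.3 and 57.7 FPKM (log2 difference -1.05 ± 0.24 SE, adjusted p = 0.00229) and Scd1 at 13.6, 13.1 and 12.8 against 28.8 and 45.6 FPKM. Cd36 and Fabp4 are also endothelial and adipocyte genes, and the part of such cells was not tested. Ckb, the creatine kinase of non-muscle tissue, was higher (137, 102 and 95.6 against 4.0 and 2.14 FPKM; log2 difference 4.81 ± 0.35 SE, adjusted p = 2.43e-07).

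More microRNA gene records were lower than higher in SMMC. This set was chosen after the values had been seen. Of 143 microRNA gene records tested 73 were lower and 26 higher in SMMC, with a median of -0.82 against 0.545 over all genes. Records that passed the filter through 1 population alone had to differ, as did Mir106b (0, 0 and 0 against 1.91 and 1.03 FPKM) and Mir128-1. The same holds for Mir17, Mir370 and Mir8095, which were at 0 FPKM in every SMMC library. Records detected in both populations were not counted apart, here or for the small nucleolar RNA records below. The counts and medians of these records, also by position, therefore follow in part from the filter. Mature microRNAs carry no polyA tail, so these values stand for fragments of longer transcripts that cover the hairpin and not for the mature form. By position in GENCODE vM21, 55 records lay within an intron of a longer gene on the same strand, of which 35 were lower and 8 higher (median -1.26), and 51 overlapped an exon, of which 22 were lower and 11 higher (median -0.62). The 49 tested host genes of the intronic records had a median of -0.21, with 17 lower and 16 higher. Of 34 lower intronic records with a tested host, the host was also lower in 12 cases and higher in 9. Small nucleolar RNA records gave 29 lower and 15 higher of 77. Their 49 tested host genes gave 28 lower and 7 higher (median -0.71 against -0.20 for all these records). Of 24 lower records with a tested host, the host was also lower in 19 cases, and 20 of 66 records lay below their host. Hairpin records are short, and the fragments behind each FPKM are unknown.

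The largest of these differences belonged to 1 locus, the microRNA cluster of the host gene Mir17hg on chromosome 14. Mir17hg itself stood at 67.9, 84.5 and 133 against 3329 and 3540.2 FPKM (log2 difference -5.22 ± 1.79 SE, adjusted p = 0.0221). Each SMMC library was below each MuSC library, but the call was lost without SMMC replicate 1 or 2 or either MuSC library (adjusted p = 0.0528 to 0.105), with a pseudocount of 0.1 FPKM (adjusted p = 0.126) and without a filter on low values (adjusted p = 0.0831). The hairpin records in genome order were Mir17, Mir18, Mir19a, Mir20a and Mir19b-1. Mir17 stood at 0, 0 and 0 against 138 and 127 FPKM and Mir18 at 0, 0.375 and 0 against 223 and 189.5 FPKM. Mir19a was at 1.18, 0.203 and 0 against 153 and 155 FPKM and Mir20a at 1.19, 0.222 and 1.31 against 143 and 146 FPKM. Mir19b-1 was at 1.34, 0.659 and 2.06 against 188 and 187 FPKM. Each was above 100 FPKM in both MuSC libraries and at or below 2.06 in SMMC. The last hairpin of the cluster, Mir92-1, named here after its value was seen, was near 0 in both populations (0.0908, 0.102 and 0.189 against 0.0408 and 0.0448 FPKM). Per GENCODE vM21 these hairpins overlap exons of Mir17hg, so reads may be assigned to host or hairpin records. Their main mature products fall into groups by the seed, bases 2 to 8, which pairs with target messages and is shown in capitals. The sequences are from RefSeq, build GRCm38.p6, and span chr14:115043684-115044496 on the plus strand.
miR-17-5p: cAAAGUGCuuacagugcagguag
miR-20a-5p: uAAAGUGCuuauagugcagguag
miR-18a-5p: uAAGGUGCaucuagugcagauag
miR-19a-3p: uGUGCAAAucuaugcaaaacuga
miR-19b-3p: uGUGCAAAuccaugcaaaacuga
miR-92a-3p: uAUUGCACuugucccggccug
miR-17-5p and miR-20a-5p share a seed, as do miR-19a-3p and miR-19b-3p, while miR-18a-5p and miR-92a-3p each have their own. Other noncoding genes also lay on the MuSC side, with 7 of 13 lower and 3 higher (2 higher and 7 lower of the 12 detected in both populations). Tug1 stood at 10.5, 10.7 and 18.6 against 1297 and 2011 FPKM and Pvt1 at 6.39, 6.47 and 3.14 against 27.7 and 19.3 FPKM. Mir22hg was at 1380.1, 1272 and 1225 against 3864 and 3227 FPKM (log2 difference -1.45 ± 0.25 SE, adjusted p = 0.000315). Malat1 was higher in SMMC (13861, 23996 and 25706 against 5830 and 5416 FPKM; log2 difference 1.86 ± 0.32 SE, adjusted p = 0.000238).

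**Figure D4:**
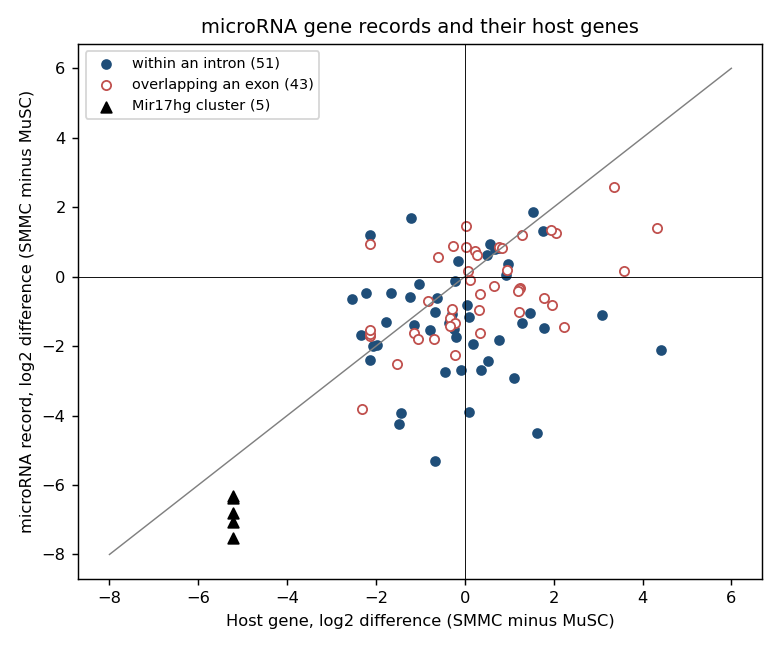
Log2 difference of microRNA gene records (vertical) against that of the host gene (horizontal), SMMC minus MuSC, filled points within introns and open points overlapping exons, with triangles for the 5 hairpins of the Mir17hg cluster. The line marks equal differences; the cluster sits between -6.31 and -7.54 with its host at -5.22.

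Genes outside all lists and the extremes of abundance complete the comparison. The largest differences off the lists on the SMMC side included Cpxm2, Ccdc3, Angptl7, Scarf2, Csrp1, Cpe, Itgbl1, Rrad and Myoc. Cpxm2 was at 611, 330.3 and 206 against 0.965 and 0.223 FPKM, Ccdc3 at 330.5, 215 and 194 against 0.175 and 0.0804 FPKM, Angptl7 at 619, 217 and 176 against 0.757 and 0.335 FPKM and Scarf2 at 855, 1166 and 1214 against 3.39 and 6.39 FPKM. Csrp1 stood at 620.5, 658 and 758 against 2.95 and 2.59 FPKM and Cpe at 204, 242 and 277 against 0.346 and 0.460 FPKM. Itgbl1 was at 302, 198 and 119 against 0.286 and 0.00662 FPKM, Rrad at 264, 339 and 392 against 2.11 and 2.35 FPKM and Myoc at 128, 133 and 122 against 0.326 and 0.826 FPKM. Cpxm2, Ccdc3, Angptl7 and Itgbl1 were highest in replicate 1 and lowest in replicate 3, as the tenocyte markers were, and Scarf2, Csrp1, Cpe and Rrad ran the other way. On the MuSC side, apart from the hairpins, they included Arglu1, Cbx3, a heterochromatin protein, Cdv3, Nmt2, a myristoyltransferase, and Pfas, an enzyme of purine synthesis. Arglu1 stood at 1.12, 1.46 and 1.94 against 193 and 218 FPKM and Cbx3 at 1.96, 2.76 and 3.68 against 233 and 401 FPKM. Cdv3 was at 16, 15.6 and 13.8 against 1263 and 1318 FPKM and Nmt2 at 21.7, 25.9 and 18.2 against 1295 and 2245 FPKM. Pfas stood at 6.49, 5.12 and 5.95 against 394 and 552 FPKM. Several genes were listed at 0 in 1 population and at 10 FPKM or more in the mean of the other. In MuSC these were Moxd1 (38.3, 89 and 85.6 FPKM in SMMC), Nkd1, Olfr78, an odorant-type receptor (37, 36.3 and 63.2), Msln, mesothelin (24.5, 41.4 and 45.3), the pacemaker channel Hcn4 (8.06, 22.9 and 27.8), Gm6249 (9.17, 18.7 and 17.1), Hbb-bt and Fxyd3 (17.9, 10.8 and 8.15). In SMMC they were Spata4 (10.5 and 12.4 FPKM in MuSC), Mir370 (11.9 and 16.8), Mir8095 (32.4 and 46.7) and Mir17. The most abundant genes of MuSC included Sdc4, Actb, Hspa5, Pdpn, podoplanin, Ubb, Gpx3, Lmna and Sept2. Pdpn was at 232, 224 and 128 against 6534 and 8593 FPKM (log2 difference -5.31 ± 0.41 SE, adjusted p = 4.39e-07) and Ubb at 1931, 2519 and 2142 against 6146 and 4445 FPKM. Gpx3 stood at 1073, 1200.1 and 899 against 6228 and 3644 FPKM (log2 difference -2.18 ± 0.34 SE, adjusted p = 0.000133) and Lmna at 1438, 1218 and 914 against 3716 and 4551 FPKM (log2 difference -1.81 ± 0.23 SE, adjusted p = 2.47e-05). Sept2 was at 139, 154 and 159 against 2846 and 4439 FPKM (log2 difference -4.55 ± 0.22 SE, adjusted p = 1.11e-08). Those of SMMC included Rn45s, Malat1, Thbs4, Hspa1a and Steap4, a metal reductase (1786, 3570.3 and 4748 against 251 and 256 FPKM; log2 difference 3.62 ± 0.43 SE, adjusted p = 1.57e-05).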

How the data were processed

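Bulk Smart-seq2 RNA-seq of fresh SMMC (n = 3) and fresh MuSC (n = 2) was taken from 1 deposited table of FPKM per gene. The authors' FPKM were made for mouse build mm10; the submitters' processing notes name HISAT2 2.1.0, SAMtools 1.3.1 and StringTie among the tools of the series. No source used here gives the annotation, the use of strand or the treatment of reads matching several genes. Library depth is unknown, so no counting interval is given. The table held 4 further columns of per-sample values that matched no sample here and were not used.

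Values were tested as log2(FPKM + 1) with limma 3.58.1 (R 4.3.3; linear models moderated with a trend on intensity, two-sided, Benjamini-Hochberg over the 12092 genes at 1 FPKM or more in at least 2 of the 5 libraries; threshold 0.05). All 11 bulk libraries entered the fit, which left 7 residual degrees of freedom, and the contrast was fresh SMMC minus MuSC. On simulated data the procedure recovered 27.5% of 2-fold and 85.7% of 4-fold changes in this contrast, with 12 false calls. Only a small share of genes was changed in the simulation, none at low values, whereas 65.3% were called in the data. The recovered shares therefore need not hold for the data. The members and the 126 gene lists were chosen with earlier results of these data known. Genes are named by a rule: sort genes, up to 4 members per list in its main direction and 2 in the other at a mean of 10 FPKM or more without overlap, any member of a hand-written list or marker list, the 10 largest differences off the lists, the 10 most abundant genes and genes listed at 0 in 1 group. Lists are described by counts and medians and were not tested. Transcript length and GC content came from GENCODE vM21, and centring within 20 bins of either was added after seeing the data. Other alternatives were the pseudocount, the filter, scaling, the libraries in the fit, the replicate block and leaving out each replicate. Results for some genes that the rule names are not reported here.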

Additional observations from a re-analysis of the deposited data

How the results depend on the processing

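Of 309 genes named and tested, 296 were called, and none of these changed direction under any alternative run. The number of genes called was between 7229 and 8437 in fits of all replicates other than the stricter filter, and a filter of at least 10 FPKM in 2 libraries tested 6029 genes and called 4305 (2737 higher, 1568 lower). Quantile normalization called 3968 lower. Centring within bins of transcript length called 3199 higher and 4200 lower, and centring within bins of GC content 3202 and 4027; both give every library the same median in each bin by construction. Leaving out 1 replicate gave 6523 to 7675 called genes, 4324 to 5490 higher and 1840 to 2265 lower. With the replicate block, 7666 genes were called (5317 higher, 2349 lower). Same-numbered libraries correlated in their deviations at 0.127 and 0.017 over only 2 shared numbers. The deviations of 2 MuSC libraries from their mean mirror each other, so these values cannot decide whether the numbers pair the libraries. Under the block Nfkb1 and Serpinh1 missed the threshold (adjusted p = 0.0513 and 0.0693). Of 250 counts of list members, 39 moved by over 1.5 times after rescaling by trimmed mean of M-values, 72 after quantile normalization, 95 after centring by length, 118 after centring by GC content and 106 with the stricter filter.

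The reversals concerned genes without a call in the reported fit. Rescaling by trimmed mean of M-values gave Aldoa -0.35, Atf4 -0.082, Cdkn1a -0.19 and Etv5 -0.11, and quantile normalization gave Etv5 -0.36 and Hey1 -0.018. The replicate block gave Heyl -0.082. Leaving out 1 replicate gave -0.32 to 0.43 for Aldoa, -0.91 to 0.028 for Btg2, -0.13 to 2.05 for Ctgf, -0.007 to 0.51 for Etv5, -0.36 to 0.051 for Fosl1 and -0.14 to 1.47 for Tnc. Centring by length gave Aldoa -1.03 (adjusted p = 0.00108), Atf4 -0.86 (adjusted p = 0.00067), Cdkn1a -0.86 (adjusted p = 0.00752), Etv5 -0.072 and Hey1 -0.45. Centring by GC content gave Aldoa -0.97 (adjusted p = 0.00474), Atf4 -0.48, Cdkn1a -0.59, Etv5 -0.31, Fosb -0.44, Hey1 -0.16, Heyl -0.38 and Tnc -0.072. The cause was not tested.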
